A study of Homo sapiens with 6 samples.

Results

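The subject was MAD2L2 together with FBXO6 and 6 further genes of DNA break repair in Calu-6 cells after an siRNA against the Delta 2-4 variant of TERT. The 8 genes were MAD2L2, FBXO6, XRCC5, XRCC6, PRKDC, PARP1, XRCC1 and PAXX, and 7 of them had rows in a count table of 10072 genes. Those 7 genes held 18 of the 21472 transcript models in the table. The genes were chosen by their counts and fold changes in the same comparison that is described here, so their own values are a description and carry no test.

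Calu-6 is a long-established human lung carcinoma line, and its genotype label was WT. They received 10 nM of a non-silencing siRNA (siControl, 3 libraries) for 48 h, or the same dose of an siRNA against the junction of TERT exons 1 and 5 (siDelta2-4, 3 libraries), to ask which transcripts differed when the Delta 2-4 variant was targeted. The column names carried the word Empty, which in the study stands for cells that stably carry an empty tagged vector, and the labels did not mention that vector. Polyadenylated RNA was read as long PCR-cDNA molecules, and the study calls the libraries of a group biological replicates without saying that they came from separate cultures, so p-values measure only the spread between these libraries.

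The libraries held 1037468 to 1309241 counts, and each is named by its total within its group (highest, middle or lowest). TERT itself had 0 rows, so the knockdown was not analysed here. Of the 6 epithelial markers, 5 had counts, with KRT18 and KRT8 between 114 and 231 counts in every library and CDH1 at 0. KRT7 had 41 counts in all, EPCAM 13 and KRT19 1. Of the 4 mesenchymal markers, VIM had 130 to 206 counts in every library, FN1 had 2 in all, and CDH2 and ZEB1 had 0. All 5 markers of blood, endothelial and fibroblast cells were at 0. On principal component 1 (42.9% of the variance of log2 CPM) the siControl library of lowest total stood at -0.36, apart from the other siControl libraries at -16.9 and -15.2 and from the siDelta2-4 libraries at 8.71 to 13.8. Every model in the table had a count in siDelta2-4, so genes read in siControl alone could not be seen.

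A break in both DNA strands can be joined directly by non-homologous end joining or copied from an intact sister by homologous recombination. The Ku ring (XRCC6 and XRCC5) caps the ends and recruits the kinase DNA-PKcs (PRKDC), and PAXX steadies the joined complex. MAD2L2, also called REV7, is an adaptor of shieldin, which keeps ends from being resected, and of DNA polymerase zeta, which copies past damaged bases, while PARP1 and XRCC1 serve the repair of breaks in one strand. FBXO6 is an F-box protein that brings misfolded glycoproteins to an SCF ubiquitin ligase, and it belongs here by position, since its gene lies beside MAD2L2 on the other strand of chromosome 1.

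MAD2L2 (ENSG00000116670.16) is annotated in GRCh38 at chr1:11658918-11691811 on the minus strand, and FBXO6 (ENSG00000116663.11) at chr1:11664200-11674354 on the plus strand. The counted transcript MAD2L2-207 runs from 11681148 down to 11674480 and stops 125 bases from the end of FBXO6, so that the pair lie tail to tail. The splice sites of this transcript are shown because such sites can tell the strand of a spliced read whose sequence is at hand. All 8 introns of MAD2L2-207 begin with GT and end with AG on the minus strand, and 0 of the 8 do so on the plus strand. Its last intron, of 265 bases, is given below with 12 bases on each side of each splice site, the first and last bases of the intron in capitals, from the genome of that build.
MAD2L2-207 donor, minus strand, chr1:11675070-11675093: gacattttaaagGTgagcttcgtg
MAD2L2-207 acceptor, minus strand, chr1:11674805-11674828: tgtgtccgtcAGatgcagctttac
acceptor window read on the plus strand: gtaaagctgcatCTgacggacaca
donor window read on the plus strand: cacgaagctcACctttaaaatgtc
Read on the strand of FBXO6, the same intron begins with CT and ends with AC, as any intron from GT to AG must on the opposite strand. The windows come from the annotated transcript and the genome, not from reads, so the strand of the counted reads was not tested.

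MAD2L2 was counted 14, 16 and 20 times in the siControl libraries of highest, middle and lowest total. In siDelta2-4 it was counted 9, 8 and 2 times in the same order. All 3 siControl libraries lay above all 3 siDelta2-4 libraries, and the library with 2 counts was the siDelta2-4 library of lowest total. Expressed as CPM (counts scaled to library totals corrected by edgeR's TMM method), the level was 16.0 ± 2.82 in the siControl group, compared with 5.09 ± 2.80 after siDelta2-4 (SD, n = 3 each). The log2 fold change, siDelta2-4 over siControl, was -1.59 ± 0.38 (SE). Scaled by the same totals, the ratio of the summed counts (50 in siControl and 19 in siDelta2-4) was 0.328. Its exact 95% binomial interval of 0.183 to 0.567 covers counting error only, without the spread between libraries. Even for counting error the interval is too narrow if PCR copies of 1 molecule were counted more than once. The fold rests in part on 1 library: without the siDelta2-4 library of lowest total it was -1.25, and over the 6 fits that each left out a library it ran from -1.86 to -1.25. Without the siControl library that stood apart on component 1 it was -1.47. In RNA from a whole culture, fewer cells with a transcript and less of it per cell cannot be told apart.

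FBXO6 had 14, 12 and 19 counts in the siControl libraries and 8, 5 and 11 in the siDelta2-4 libraries, again without overlap of the CPM values. Its level was 14.5 ± 3.42 CPM with siControl against 6.83 ± 3.18 CPM with siDelta2-4 (SD, n = 3 each), a log2 fold change of -1.10 ± 0.37 (SE). The scaled ratio of summed counts (45 and 24) was 0.461 (exact 95% interval 0.269 to 0.773), and leaving out each library in turn gave log2 fold changes from -1.48 to -0.84, with -0.93 without the siControl library that stood apart. The siDelta2-4 library of lowest total, which was the lowest of all for MAD2L2, was the highest of the siDelta2-4 libraries for FBXO6.

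Across the table, edgeR's quasi-likelihood test called 504 of 3888 tested genes at an adjusted p under 0.1, which is 13.0%, and 232 of them, or 5.97% of those tested, were lower in siDelta2-4. The CPM values did not overlap between groups in 26.0% of tested genes. An unadjusted edgeR p under 0.05 was found for 900 of the 3888. Of the 8 genes, 3 passed the filter on low counts (MAD2L2, FBXO6 and XRCC6), and MAD2L2 and FBXO6 were called lower and did not overlap. These shares give the background only, because the genes were selected on this comparison. FBXO6 was no longer called in 4 of the 6 fits that left out a library, those without the siControl library of highest or lowest total or the siDelta2-4 library of highest or middle total.

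**Figure D1:**
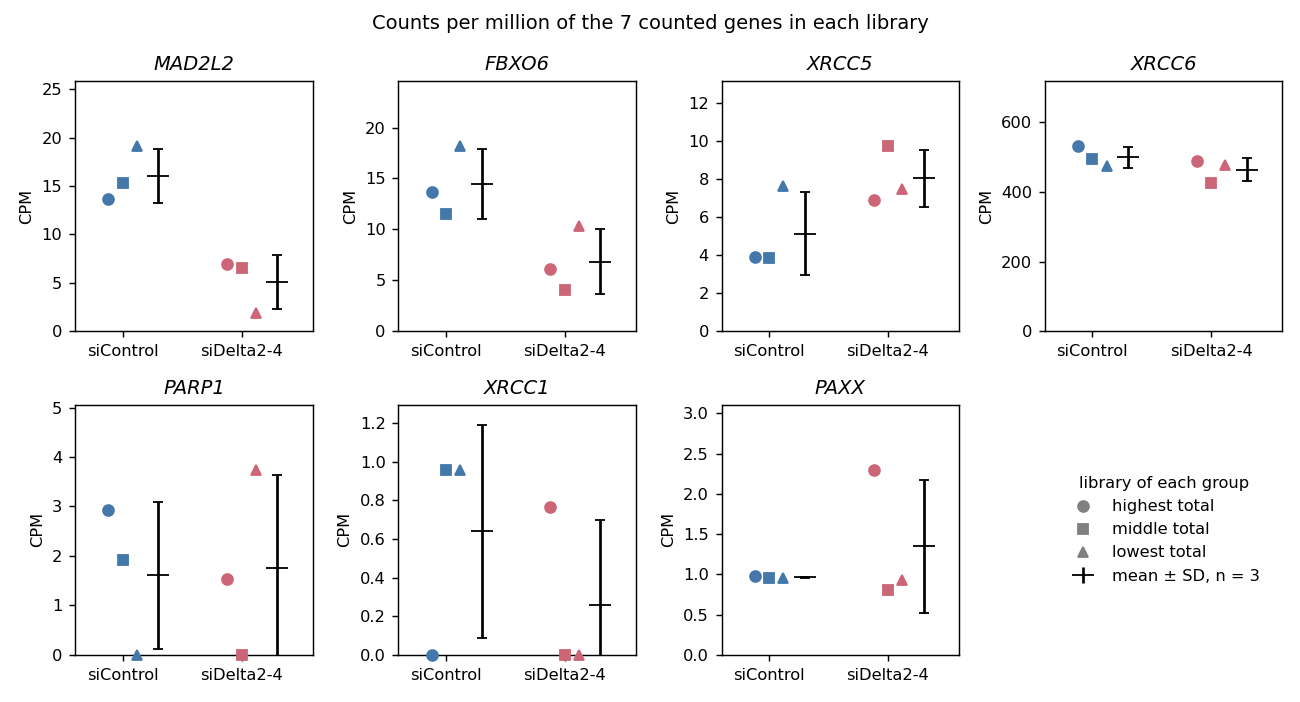
CPM in each of the 6 libraries for the 7 genes with counts, each on its own axis from 0, with siControl in blue, siDelta2-4 in red, the shape giving the rank of the library total, and bars for the mean ± SD (n = 3). MAD2L2 and FBXO6 show 2 separate groups of points, XRCC5 lies at 3.84 to 7.66 CPM in siControl and 6.91 to 9.75 in siDelta2-4, and PARP1, XRCC1 and PAXX stay under 4 CPM.

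The transcript models under the names MAD2L2 and FBXO6 differed in kind. MAD2L2 had 2 annotated models, of which MAD2L2-207 (9 exons, 1053 nt) held 65 of 69 counts, or 94.2%. This model gave 14, 16 and 19 counts with siControl against 8, 6 and 2 with siDelta2-4. The other, MAD2L2-209 (8 exons, 1338 nt), held 4 counts, 1 in siControl and 3 in siDelta2-4. Of the 12 annotated MAD2L2 transcripts, 2 reach into FBXO6, and they held 0 counts.

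FBXO6 had a single model, and it was not an annotated one. The model had 9 exons and 1039 nt and was labelled by TALON, the annotation tool of the authors, as an incomplete match lacking the start of a known transcript (ISM, suffix). The 3 annotated FBXO6 transcripts have at most 6 exons. MAD2L2-207, on the other strand, has 9 exons and differs from the model by 14 nt in length. All 69 counts under the name FBXO6 sat on this model, and 0 were on an annotated FBXO6 transcript. Like every unannotated model in the table, it had at least 5 counts in each siDelta2-4 library, so lower values there could not be seen. The table gives no coordinates or strand for models outside the annotation, so the origin of these reads was not tested.

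The same mismatch was counted over the whole table. None of the 15074 annotated models had more exons than the transcripts annotated for its gene, as their definition requires, while 302 of 1435 ISM models (21.0%) did, and these held 36.8% of the counts of that class. Among the 302, 134 (44.4%) had a transcript on the other strand within 20000 bases with the same number of exons and a length within 50 nt, against 224 of the 1133 other ISM models (19.8%). The FBXO6 model was among the 302, and the XRCC6-labelled ISM models described below were among the 1133. How often such matches arise by chance was not measured.

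**Figure D2:**
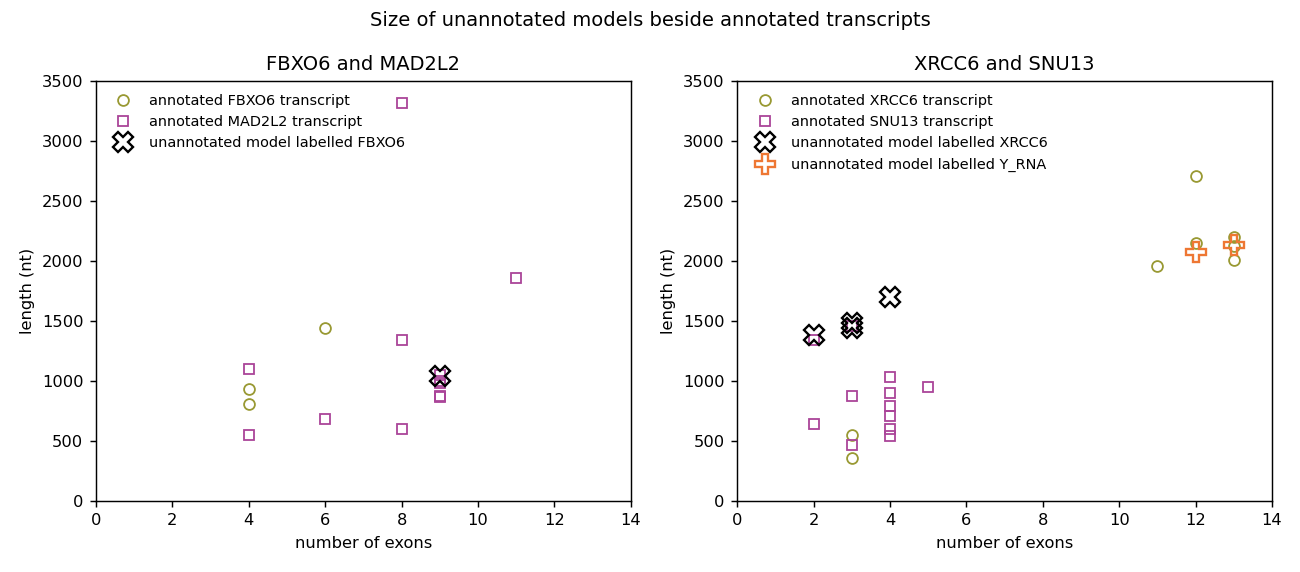
Number of exons (x axis) against length in nt (y axis) for annotated transcripts and for the unannotated models, at the FBXO6 and MAD2L2 loci (left) and the XRCC6 and SNU13 loci (right). The FBXO6-labelled model, at 9 exons and 1039 nt, lies on the MAD2L2 transcripts, the XRCC6-labelled models with 2 and 3 exons lie on SNU13 transcripts, and both Y_RNA-labelled models lie among XRCC6 transcripts.

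With both names summed, the locus had 28, 28 and 39 counts with siControl against 17, 13 and 13 with siDelta2-4. The summed level was 30.5 ± 5.94 CPM with siControl against 11.9 ± 1.26 CPM with siDelta2-4 (SD, n = 3 each), and its log2 fold change was -1.35. In siDelta2-4 the coefficient of variation of the sum was 10.6%, compared with 54.9% for MAD2L2 and 46.5% for FBXO6 alone. In siControl it was 19.5% for the sum, 17.6% for MAD2L2 and 23.6% for FBXO6. The share of the locus under the name FBXO6 was 38.5% to 48.7% in 4 of the libraries and 14 of 28 counts in the siControl library of highest total, but 84.6%, or 11 of 13 counts, in the siDelta2-4 library of lowest total. The scaled ratio of summed counts (95 and 43) was 0.391 (exact 95% interval 0.266 to 0.566), and leaving out each library in turn moved the log2 fold change of the sum between -1.43 and -1.20, the latter without the siControl library that stood apart.

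**Figure D3:**
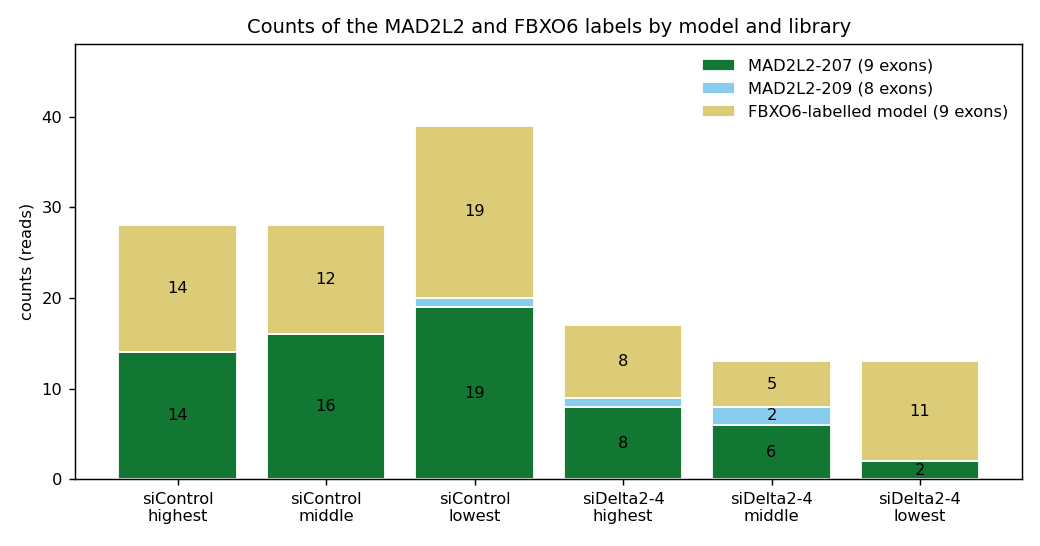
Stacked counts of the 3 models at the MAD2L2 and FBXO6 loci in each library, ordered by total within each group, with the y axis in reads from 0. The stacks reach 28, 28 and 39 reads in siControl and 17, 13 and 13 in siDelta2-4, and the last siDelta2-4 stack is mostly FBXO6-labelled.

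FBXO44, an F-box paralog of FBXO6 that overlaps MAD2L2 on the plus strand, had 5 counts, 3 in siControl and 2 in siDelta2-4. The annotated tested genes whose log2 CPM most resembled MAD2L2 across the 6 libraries were MED10, a Mediator subunit (Pearson's r = 0.996), ENSG00000260335 (0.989) and DUT, which removes dUTP from the nucleotide pool (0.984). These correlations are a description over libraries that also share their depth. They are the highest among all annotated tested genes, and they include the difference between groups on which MAD2L2 was selected. The log2 fold changes of these genes were -0.57, -0.31 and -0.63 in the same order. MED10 had 27, 28 and 32 counts with siControl against 28, 25 and 15 with siDelta2-4, and it too was lowest in the siDelta2-4 library of lowest total.

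XRCC6, which encodes Ku70 (ENSG00000196419.13, chr22:41621163-41664048, plus strand), was counted 546, 515 and 494 times in siControl and 639, 525 and 509 times in siDelta2-4. The level was 500 ± 30.0 CPM with siControl against 465 ± 33.6 CPM with siDelta2-4 (SD, n = 3 each), and the groups overlapped. The log2 fold change was -0.11 ± 0.09 (SE), and the ratio of CPM-scaled summed counts was 0.930 (exact 95% interval 0.867 to 0.997, counting error only). Of its 3228 counts, 232 (7.19%) were on annotated XRCC6 transcripts. Of those, XRCC6-202 (13 exons, 2122 nt) had 162 and XRCC6-201 (12 exons, 2709 nt) had 68. The annotated transcripts alone had 41, 46 and 33 counts with siControl against 35, 42 and 35 with siDelta2-4, which is 38.6 ± 6.37 and 31.3 ± 3.87 CPM (SD, n = 3 each) with a ratio of 0.807 (0.618 to 1.05).

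The other 2996 counts under the name XRCC6 were on 4 unannotated models. A model with 3 exons and 1438 nt, a new combination of known splice sites (NIC), held 1756 counts, or 54.4% of the gene. An ISM suffix model with 3 exons and 1485 nt held 716 counts (22.2%), an ISM prefix model with 2 exons and 1384 nt held 486 (15.1%), and a NIC model with 4 exons and 1696 nt held 38 (1.18%). The annotated XRCC6 transcripts with 3 exons are at most 550 nt long, and XRCC6 has none with 2 or 4. SNU13, an RNA-binding protein of the U4 spliceosomal particle and of box C/D particles, lies 9884 bases from XRCC6 on the minus strand, at chr22:41673933-41690504. Its transcript SNU13-202 has 3 exons and 1458 nt, which is 20 and 27 nt from the 3-exon models, and SNU13-208 has 2 exons and is 44 nt from the 2-exon model. SNU13-210, with 4 exons, was 660 nt shorter than the 4-exon model.

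The splice sites of SNU13-202 and of the first intron of XRCC6-202 are shown for the same reason as those of MAD2L2. Both introns of SNU13-202 begin with GT and end with AG on the minus strand and 0 of 2 on the plus strand, and all 12 introns of XRCC6-202 do so on the plus strand and 0 on the minus strand.
SNU13-202 intron 1 donor, minus strand, chr22:41688782-41688805: accgcagccatgGTgagtgcgtgc
SNU13-202 intron 1 acceptor, minus strand, chr22:41680353-41680376: tcccccccatAGactgaggctgat
SNU13-202 intron 2 donor, minus strand, chr22:41680232-41680255: gagccaatgaggGTaaggcagcca
SNU13-202 intron 2 acceptor, minus strand, chr22:41675184-41675207: ttctctccgcAGccaccaaaaccc
XRCC6-202 intron 1 donor, plus strand, chr22:41621334-41621357: cctgcgccaaagGTaagcgggccg
XRCC6-202 intron 1 acceptor, plus strand, chr22:41621978-41622001: tctttcgcctAGtgagcagtagcc
In capitals are again the first and last bases of each intron. These windows too come from the annotation and the genome, not from reads.

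SNU13 under its own name had 493, 484 and 411 counts with siControl against 619, 475 and 444 with siDelta2-4, or 446 ± 46.2 and 426 ± 45.3 CPM (SD, n = 3 each). One of its models, an ISM suffix with 2 exons, had 1384 nt, the same size as the 2-exon model under the name XRCC6. Inside XRCC6, on the minus strand, lies a Y_RNA gene (ENSG00000200332.1, chr22:41648089-41648190) with 1 annotated exon. The 188 counts under that name were on models with 13 exons (2132 nt, 127 counts) and 12 exons (2071 nt, 61 counts). The first was 10 nt from XRCC6-202 and the second 77 nt from XRCC6-206. Annotated XRCC6 transcripts and the Y_RNA name together gave 65, 68 and 70 counts with siControl against 64, 93 and 60 with siDelta2-4, a level of 65.2 ± 1.84 and 60.3 ± 13.7 CPM with a ratio of 0.924 (0.759 to 1.12). By each of these ways of counting, the CPM ranges of the groups overlapped. How reads were assigned to a strand was not tested.

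**Figure D4:**
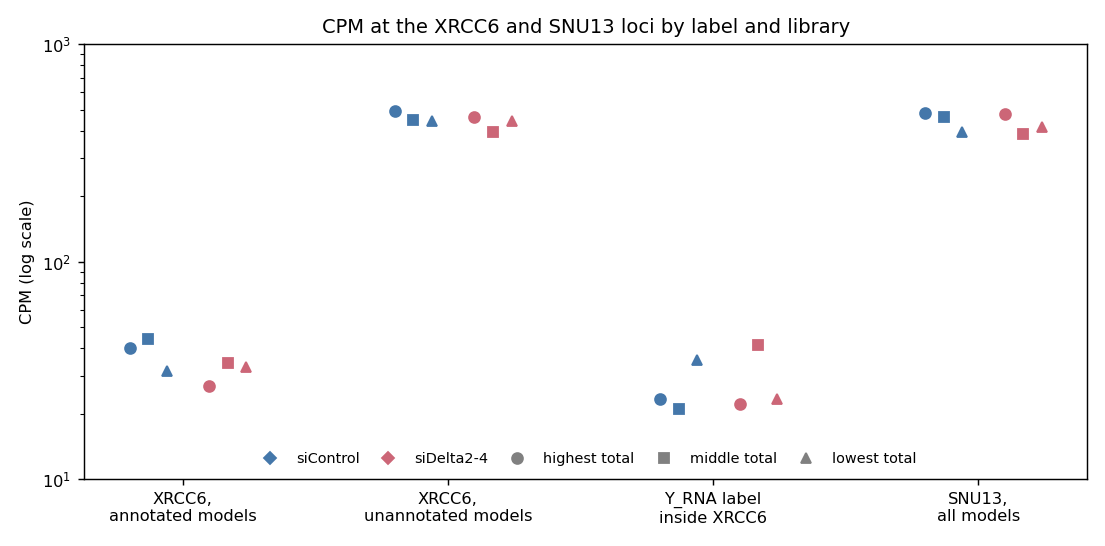
CPM on a log axis in each library for XRCC6 split by annotated and unannotated models, for the Y_RNA name inside XRCC6, and for SNU13, with siControl in blue, siDelta2-4 in red and the shape giving the rank of the library total. The annotated XRCC6 models lie at 26.9 to 44.1 CPM and the unannotated ones at 392 to 492 CPM, close to SNU13 at 386 to 481 CPM, and the groups overlap in all 4 sets.

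XRCC5, which encodes Ku80 (ENSG00000079246.16, chr2:216107464-216206303, plus strand), had 4, 4 and 8 counts with siControl against 9, 12 and 8 with siDelta2-4. Its level was 5.13 ± 2.19 CPM with siControl against 8.05 ± 1.502 CPM with siDelta2-4 (SD, n = 3 each). The siControl library of lowest total, at 7.66 CPM, lay within the siDelta2-4 range of 6.91 to 9.75 CPM, and the ratio of 1.57 had an interval of 0.823 to 3.09. Unlike XRCC6, all of its 45 counts were on annotated transcripts, 41 of them (91.1%) on XRCC5-201 with 21 exons and 3379 nt. It was below the filter on low counts, and without the filter its log2 fold change was 0.62.

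PRKDC, the catalytic kinase subunit that Ku recruits (ENSG00000253729.9, chr8:47773111-47960178, minus strand), had 0 rows. Its longest annotated transcript has 13459 nt, and its transcripts have up to 86 exons. Because every model in the table had a count in siDelta2-4, a missing row says nothing of siControl. PAXX (ENSG00000148362.11, chr9:136992422-136993984, plus strand) had 1, 1 and 1 counts with siControl against 3, 1 and 1 with siDelta2-4, all on PAXX-201 with 7 exons and 808 nt. The ratio of 1.44 had an interval of 0.280 to 9.27, so that a difference was not detectable at this depth.

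Of the single-strand break genes, PARP1, the enzyme that marks breaks with poly(ADP-ribose) (ENSG00000143799.14, chr1:226360210-226408154, minus strand), had 3, 2 and 0 counts with siControl against 2, 0 and 4 with siDelta2-4. Its ratio was 1.04 (0.264 to 4.30). Of its 11 counts, 7 were on PARP1-201, annotated with 2 exons and 3358 nt, 3 on PARP1-208 (2 exons, 416 nt) and 1 on PARP1-223 (10 exons, 2420 nt), and 0 on a transcript with 23 exons, the most annotated for the gene. XRCC1, the scaffold that gathers enzymes at such breaks (ENSG00000073050.12, chr19:43543311-43580473, minus strand), had 0, 1 and 1 counts with siControl against 1, 0 and 0 with siDelta2-4, and its ratio of 0.432 had an interval of 0.00732 to 8.30. At these counts no difference in either gene was detectable. Without the filter, the log2 fold changes were 0.04 for PARP1, -0.97 for XRCC1 and 0.46 for PAXX.

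The wider pathways were described with 6 lists of 117 genes in all, of which 73 had counts and 44 had no row. The median length of the longest annotated transcript was 2574 nt for the genes with a row and 5208.5 nt for those without. The filter left 20 of the 117 genes, and 17 of them were outside the 8. Of these 17, 1 was called (5.88%, against 13.0% of all tested genes) and 4 had CPM values without overlap (26.0% of all tested genes had none). The median log2 fold change of the 17 was 0.03, as was that of all 3888 tested genes.

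The end-joining list had 9 of 13 genes with counts. XRCC6, with 7.19% of its counts on annotated transcripts, was its only gene tested. CYREN, a regulator of Ku, had 24 counts, XRCC4, the partner of DNA ligase IV, had 21, and NHEJ1, or XLF, had 9. In the list of MAD2L2 complexes, 10 of 18 genes had counts, and TP53BP1, RIF1, SHLD2, REV3L and REV1 were among those without a row. Of its 3 tested genes outside the 8, 0 were called by edgeR and 0 had an unadjusted p under 0.05. Of all 3888 tested genes, 13.0% were called and 900 had such a p. DYNLL1, a dynein light chain that binds 53BP1, had a log2 fold change of 0.03 ± 0.11 (SE), STN1, a subunit of the CST complex that works with shieldin, 0.40 ± 0.34, and POLD2, a subunit that polymerases delta and zeta share, -0.61 ± 0.38. The edgeR adjusted p was 0.891, 0.512 and 0.348 in the same order. The other genes of the list were not compared between groups, since they were below the filter or, for 8 of them, had no row.

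In the list for single-strand breaks and base excision repair, 23 of 27 genes had counts, 4 were tested and 0 were called by edgeR. Of all 3888 tested genes, 13.0% were called and 900 had an unadjusted p under 0.05. In this list 1 gene had such a p. That gene was FEN1, the flap endonuclease, with 20, 26 and 24 counts with siControl against 20, 17 and 15 with siDelta2-4. Its level was 22.5 ± 2.75 CPM with siControl against 14.4 ± 0.83 CPM with siDelta2-4, without overlap, as in 26.0% of all tested genes. The log2 fold change of -0.64 ± 0.27 (SE) did not pass the edgeR test (adjusted p = 0.147). APEX1, the abasic site endonuclease, stood at 0.05 ± 0.19 (adjusted p = 0.904), and SMUG1, a uracil glycosylase with 16.7% of its counts on annotated models, at 0.16 ± 0.22 (adjusted p = 0.710).

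In the list for homologous recombination and end resection, 14 of 30 genes had counts, and MRE11, RAD50, BRCA1, BRCA2 and PALB2 were among those without a row. Of 5 genes tested, 1 was called and 2 had CPM values without overlap, beside 13.0% and 26.0% of all tested genes. The gene called was RPA3, the small subunit of the protein that coats single-stranded DNA. It had 322, 307 and 269 counts with siControl against 271, 298 and 267 with siDelta2-4, or 289 ± 28.6 and 233 ± 22.4 CPM without overlap. Its log2 fold change was -0.31 ± 0.11 (SE, edgeR adjusted p = 0.0753), and the call was lost in 5 of the 6 fits that left out a library. The exception was the fit without the siControl library of lowest total, with a log2 fold change of -0.41 and an edgeR adjusted p of 0.00287. Only 0.577% of its counts were on annotated RPA3 models. SEM1, a small partner of BRCA2, stood at -0.18 ± 0.10 (adjusted p = 0.285), and RAD51C, a gene of strand exchange, at -0.35 ± 0.21 (adjusted p = 0.331), the latter without overlap between groups. Of the 206 RAD51C counts, 174 (84.5%) were on RAD51C-203 (2 exons, 567 nt), 99 in siControl and 75 in siDelta2-4. RAD51C-201 (9 exons, 2562 nt) went the other way, with 9 in siControl and 22 in siDelta2-4. RPA2, another subunit of the same coating protein as RPA3, stood at -0.25 ± 0.35 (adjusted p = 0.727), and SWI5, a recombination mediator, at 0.28 ± 0.24 (adjusted p = 0.519).

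Of the break signalling genes, 11 of 21 had counts, 3 were tested, and 0 were called by edgeR or had an unadjusted p under 0.05. Among all 3888 tested genes, 13.0% were called and 900 had such a p. UBE2N, which builds lysine-63-linked ubiquitin chains at breaks, stood at 0.14 ± 0.15 (SE, adjusted p = 0.623), and BABAM1 and BABAM2, scaffold subunits of the BRCA1-A complex, at 0.33 ± 0.36 (adjusted p = 0.621) and 0.89 ± 0.44 (adjusted p = 0.223). BABAM2 had 11, 3 and 3 counts with siControl against 17, 12 and 8 with siDelta2-4, and without the siControl library of highest total, which holds the 11, it was called (log2 fold change 1.78, edgeR adjusted p = 0.0669). CDKN1A, a cell cycle inhibitor, had no row. In the SCF list, 0 of the 2 tested genes other than FBXO6 were called by edgeR and 0 had an unadjusted p under 0.05, beside 13.0% called of all tested genes. The shared adaptor SKP1 stood at -0.12 ± 0.09 (adjusted p = 0.421) and the RING subunit RBX1 at -0.20 ± 0.10 (adjusted p = 0.222).

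**Figure D5:**
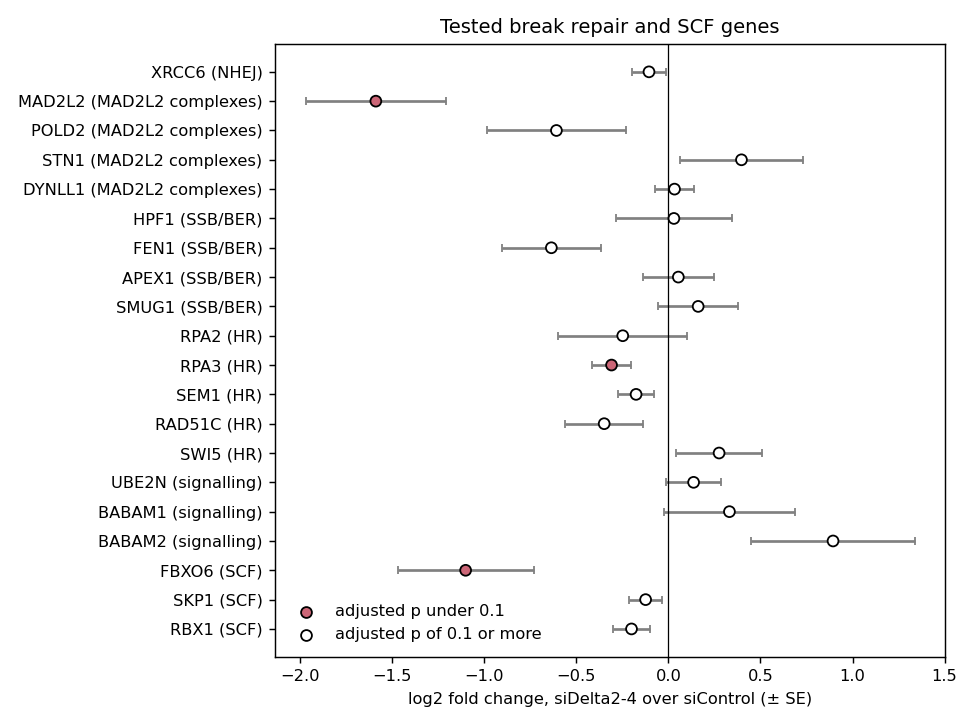
Log2 fold change, siDelta2-4 over siControl, ± SE (x axis) for the 20 tested genes of the 6 lists, with the list in brackets and filled points for an edgeR adjusted p under 0.1. MAD2L2 at -1.59, FBXO6 at -1.10 and RPA3 at -0.31 are the 3 filled points, and MAD2L2 and FBXO6 are a description since they were selected on this comparison. Only 7.19% of the XRCC6 counts and 0.577% of the RPA3 counts were on annotated models.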

How the data were processed

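The authors deposited a table of unnormalised counts, 1 row for each transcript model with its length and exon number. Per the labels and the study's methods, the authors aligned PCR-cDNA reads to GRCh38.p14 with minimap2 2.14, sorted them with SAMtools 1.13, corrected them with TranscriptClean, annotated them with TALON against Gencode and required 5 reads in each of 3 samples for a model outside the annotation. All 6398 models outside the annotation met this read limit in the 3 siDelta2-4 libraries. The siRNA named in each of the 6 columns gave its group. Counts were summed per gene identifier and compared by the quasi-likelihood test of edgeR 4.0.16 under R 4.3.3 (TMM, filterByExpr, two-sided, Benjamini-Hochberg over all tested genes, no covariate), a gene being called at an adjusted p under 0.1. Log2 CPM used a prior count of 2. Coordinates and transcripts were those of the Gencode annotation on GRCh38. Ratios of summed counts were scaled by TMM totals and given exact 95% binomial intervals. The edgeR test was checked on simulated counts.

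The genes and lists were chosen with earlier results of these data known. Named were the 8 genes, list genes called and the 3 genes of each list with most counts outside the 8. Named too were genes overlapping the 8 that had counts, and the 3 genes most like MAD2L2. RPA2, SWI5 and list genes with no row were named after their values were seen. SNU13 overlaps none of the 8 and falls outside these rules. It was named for the size of its transcripts beside that of the XRCC6-labelled models. Alternatives were DESeq2 1.42.0 (Wald test, size factors), library totals alone, no filter, at least 10 counts in every library, known models alone, 1 row rule for both groups, a loess trend on length removed (span 0.4), an adjusted p under 0.05 each library left out and, added after seeing the data, a replicate block from the numbers ending the columns.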

Additional observations from a re-analysis of the deposited data

How the results depend on the processing

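The log2 fold changes of MAD2L2, FBXO6, XRCC6 and the summed locus kept their sign under every alternative that gave a value. That of XRCC6 moved beyond the spread between replicates with known models alone (-0.34) and with the length trend removed (-0.26). Genes called numbered 504 (272 higher, 232 lower), and 304 at an adjusted p under 0.05, 254 with the DESeq2 Wald test (93 higher, 161 lower), 252 with known models alone and 194 to 1041 with a library left out, the highest without the siControl library of lowest total and the lowest without the siDelta2-4 library of middle total. On library totals alone the split was 361 higher and 152 lower, and with the length trend removed 202 and 268. The MAD2L2 complexes list fell from 1 call to 0 with at least 10 counts in every library, which removes MAD2L2. The recombination list fell from 1 call to 0 at an adjusted p under 0.05, on library totals alone and with known models alone, and had 0 to 2 with a library left out (RPA3 and SEM1 without the siControl library of lowest total). The SCF list fell from 1 (FBXO6, selected on this comparison) to 0 at an adjusted p under 0.05, with at least 10 counts and with known models alone, had 3 with the length trend removed (FBXO6, RBX1 and SKP1), and 0 to 1 with a library left out. The list for single-strand breaks and base excision repair rose from 0 to 1 (FEN1) with the length trend removed, and break signalling had 0 to 1 with a library left out. DESeq2 gave no adjusted p for MAD2L2 and FBXO6, so its counts for their lists were not compared. XRCC5, PARP1, XRCC1 and PAXX were below the filter and PRKDC had no row, so they had no main value to compare. The column names end in numbers from 1 to 3 in each group, which the labels do not explain. Deviations from the group means had r of -0.14, -0.08 and 0.04 across genes between same-numbered libraries. Between the other pairs r ran from -0.11 to 0.19. With 3 libraries in each group, these values cannot tell whether same-numbered libraries shared a culture or a batch. A replicate block on the column number was an alternative chosen after seeing the data. With it, 299 genes were called, the recombination and SCF lists had 0 calls, and the other lists kept their counts. The causes of these changes were not tested, apart from the genes removed by a filter.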
